A study of Mus musculus with 6 samples.

Results

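The genes described here are the 10 NF-kB subunits and feedback inhibitors Nfkb1, Nfkb2, Rel, Rela, Relb, Nfkbia, Nfkbie, Nfkbiz, Tnfaip3 and Bcl3, chosen by symbol from the 32285 genes of the count tables. They were followed in healthy bone marrow stem and progenitor cells of C57BL/6J (CD45.1) mice that had received either PBS or C1498 cells, a murine acute myeloid leukemia (AML) line of the CD45.2 allele. The mice were 8 to 12 weeks old, AML recipients were given 1000000 cells without conditioning, and bone marrow was taken at day 21, with 3 libraries per group. Lineage-negative, cKit+ and Sca1+ (LSK) CD45.1+ cells were sorted, and their RNA was counted with 10x Genomics Chromium V3 libraries. A single transplantable line stood for AML, all recipients carried the same host genotype, and the sources do not say whether each library was 1 mouse, so p-values measure the spread between libraries.

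NF-kB transcription factors are dimers of 5 related proteins. In resting cells, IkB inhibitors hold the dimers in the cytoplasm until receptors for TNF, interleukin-1 or microbial products activate the IkB kinase. The canonical arm works mainly through dimers that hold Rela or Rel with the product of Nfkb1, and the non-canonical arm through Relb with the product of Nfkb2. Several target genes of the pathway encode its own brakes, among them Nfkbia, Nfkbie and Tnfaip3, so that these transcripts are widely used as readouts of pathway activity. In blood stem cells the pathway is known for its part in stress and inflammatory responses.

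Sequence near the start sites is described next, without a test of where this feedback acts. The 250 bases upstream of annotated start sites were read from RefSeq (GRCm38.p6, the build named in the submitters' processing notes). This was done for the 7 members that could be matched, namely Nfkb2, Rel, Rela, Nfkbia, Nfkbie, Tnfaip3 and Bcl3. Of these 7, 5 held the NF-kB consensus decamer on at least 1 strand, namely Nfkb2, Rel, Nfkbia, Nfkbie and Tnfaip3. Among all 32851 windows of that length, 7.25% held it, and among all 27025 genes, 8.23% had a window with it. A match is a description of letters and not evidence of binding. The 3 windows below are those of members that had a single matched window with a decamer and differed between the classes, and capitals mark the decamers, with overlapping ones run together.
Rel, chr11:23770970-23771219, - strand: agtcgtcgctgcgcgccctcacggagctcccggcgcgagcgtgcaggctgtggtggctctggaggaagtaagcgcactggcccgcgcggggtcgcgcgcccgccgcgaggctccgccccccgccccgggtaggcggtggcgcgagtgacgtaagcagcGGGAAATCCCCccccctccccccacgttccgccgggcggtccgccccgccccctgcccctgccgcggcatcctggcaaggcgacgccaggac
Nfkbia, chr12:55492648-55492897, - strand: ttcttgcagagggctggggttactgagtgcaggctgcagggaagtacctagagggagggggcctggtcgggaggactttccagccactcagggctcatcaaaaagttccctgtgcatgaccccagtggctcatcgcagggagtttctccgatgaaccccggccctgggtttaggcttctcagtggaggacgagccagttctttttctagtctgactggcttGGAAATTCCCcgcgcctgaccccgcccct
Nfkbie, chr17:45555450-45555699, + strand: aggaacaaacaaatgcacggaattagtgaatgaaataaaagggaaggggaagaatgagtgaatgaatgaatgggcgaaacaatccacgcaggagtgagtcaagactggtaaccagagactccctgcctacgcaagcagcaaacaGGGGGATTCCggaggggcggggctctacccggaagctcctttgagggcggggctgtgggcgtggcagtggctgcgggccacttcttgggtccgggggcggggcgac
Each is printed 5′ to 3′ and ends at the base before the start site. Counted from that site, the decamers of Rel began at -92 and -91 and overlapped by all but 1 base, that of Nfkbia began at -29 and that of Nfkbie at -106. The most upstream of 3 Nfkb2 windows held 3 decamers, which began at -39, -38 and -11, and the other Nfkb2 windows held 1 each, at -236 and -225 from their own start sites. One of 2 Tnfaip3 windows held 2, at -125 and -12. These are only described, since Nfkb2 and Tnfaip3 each had more than 1 matched window. No decamer was found in the windows of Rela and Bcl3.

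The deposited cell table held 16822 cells and gave each a class (HSC, MPP-2, MPP-3 or MPP-4, where MPP is multipotent progenitor), a cell-cycle phase and a cluster from 0 to 8. PBS replicates 1, 2 and 3 had 6838, 934 and 4398 of these cells, and AML replicates 1 and 3 had 693 and 3959. None came from AML replicate 2, so that 3 PBS libraries stood against 2 AML libraries. Summed UMIs (unique molecular identifiers, 1 per captured transcript) ranged from 1945659 in AML replicate 1 to 32123508 in PBS replicate 1, and AML replicate 1 also stood apart in phase, with 14.7% of cells in G1 against 49.0% to 58.2% in the others. All 934 cells of PBS replicate 2 had barcodes that also occurred among the barcodes of another library, whereas no pair of libraries shared more than 12 barcodes among the cells used. The sorting markers were present in every library, at 79.7 to 104 CPM (counts scaled to a total of 1000000 UMIs) for Kit and 101 to 203 CPM for Ly6a, which encodes Sca1, while the 10 T and NK cell markers summed to 157 to 191 CPM, of which Nkg7 made 145 to 182 CPM and the T cell gene Cd3e at most 0.192 CPM. The class labels, set by the study from expression scores of the same cells, matched the markers listed for them: in PBS libraries, 9 of 10 HSC, 5 of 7 MPP-2, 7 of 7 MPP-3 and 5 of 7 MPP-4 markers were highest in their own class.

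All 10 members were detected in all 5 libraries, from 8 UMIs of Relb in AML replicate 1 to 4048 UMIs of Nfkbia in AML replicate 3. Levels below are CPM of the summed cells, and since these 3′ counts were not divided by transcript length they are compared between samples and not between genes. Differences are log2 fold changes from edgeR's quasi-likelihood fit on library sums with TMM scaling, with the adjusted p taken over all genes tested.

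Steady-state levels by class were examined first, in the 3 PBS libraries. Of the 10 members, 7 differed between the classes by edgeR's F test over the class terms with the library as a block (Nfkbiz, Rel, Nfkbia, Nfkbie, Relb, Bcl3 and Nfkb1), beside 60.7% of the 11793 genes tested, so that the share of members was close to that of genes in general. Nfkb2, Rela and Tnfaip3 did not pass (edgeR adjusted p = 0.77, 0.89 and 0.37). With 1 PBS library left out at a time, 5, 5 and 3 members passed without replicate 1, 2 and 3. The classes were assigned from expression in the same cells, and the test therefore describes the classes as assigned.

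**Figure D1:**
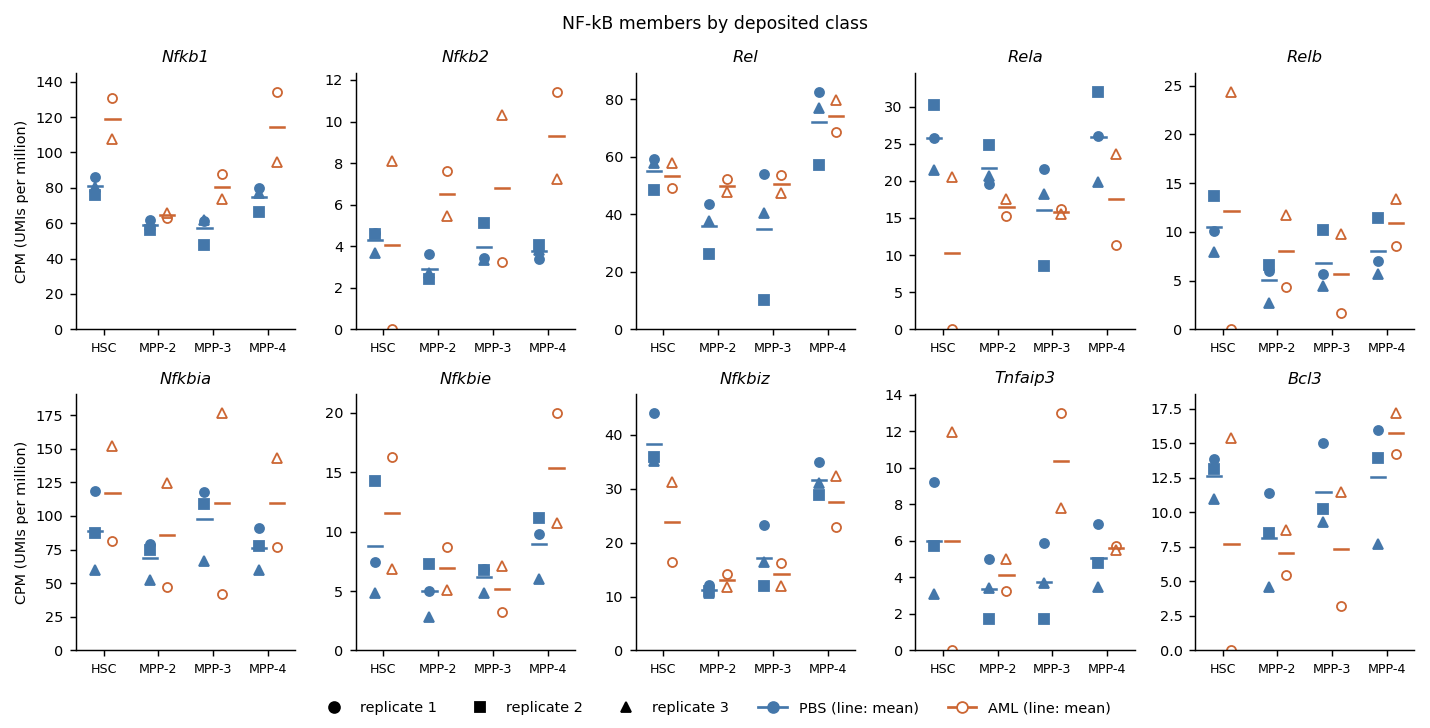
CPM of the 10 members in each deposited class, with 1 point per library, PBS filled and AML open, and a line at the group mean. Nfkbiz in PBS libraries was lowest in MPP-2, at 10.6 to 12.1 CPM, and highest in HSC, at 35.2 to 44.0 CPM.

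Of the subunits, Rel, Nfkb1 and Relb differed between the classes. Rel encodes c-Rel, a subunit with a transactivation domain that is prominent in lymphoid cells (ENSMUSG00000020275, chr11:23736847-23770970). It was highest in MPP-4, the class with lymphoid priming, at 82.4, 57.0 and 76.8 CPM in PBS replicates 1, 2 and 3, against 59.3, 48.5 and 57.8 CPM in HSC. MPP-4 was above HSC within each library, although the ranges over libraries overlapped. The difference of MPP-4 minus HSC was 0.47 ± 0.09 (log2, SE; edgeR adjusted p = 0.00037), and that of MPP-2 minus HSC was -0.35 ± 0.10 (edgeR adjusted p = 0.0052), which without PBS replicate 3 no longer passed (edgeR adjusted p = 0.056). In MPP-3, PBS replicate 2 held 41 cells and its level of 10.2 CPM stood below the 53.9 and 40.5 CPM of replicates 1 and 3.

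Nfkb1, whose product p105 is processed to the p50 subunit (ENSMUSG00000028163, chr3:135584655-135691547), measured 86.0, 75.8 and 80.6 CPM in HSC and 61.6, 56.4 and 59.1 CPM in MPP-2. HSC lay above MPP-2 without overlap, and MPP-2 minus HSC was -0.23 ± 0.07 (log2, SE; edgeR adjusted p = 0.0093), which without PBS replicate 1 no longer passed (edgeR adjusted p = 0.14). Relb, the transactivating subunit of the non-canonical arm (ENSMUSG00000002983, chr7:19606217-19629438), measured 10.0, 13.7 and 7.89 CPM in HSC and 5.97, 6.56 and 2.70 CPM in MPP-2, again without overlap, a difference of -0.81 ± 0.21 (edgeR adjusted p = 0.0022). Nfkb2, whose product p100 is processed to p52 (ENSMUSG00000025225, chr19:46304320-46312385), lay between 2.43 and 5.11 CPM in all 12 sums of PBS libraries and classes. Rela, the main transactivating subunit of the canonical arm (ENSMUSG00000024927, chr19:5637483-5648130), lay between 8.51 and 31.9 CPM. In both, the range of each class overlapped with that of the next in order of mean level.

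Of the cytoplasmic inhibitors, Nfkbia encodes IkBα, which is degraded on activation and resynthesized as a direct NF-kB target (ENSMUSG00000021025, chr12:55489410-55492647). Its levels in MPP-3 were 118, 109 and 66.5 CPM in PBS replicates 1, 2 and 3, and in HSC 118, 87.2 and 60.0 CPM. In MPP-4 they were 91.3, 77.8 and 59.9 CPM, and in MPP-2 78.9, 74.8 and 52.2 CPM. PBS replicate 3 was lowest in every class and the ranges of all 4 classes overlapped. With the library as a block, MPP-3 stood above MPP-2 by 0.59 ± 0.10 (log2, SE; edgeR adjusted p = 7.2e-05), and MPP-4 minus MPP-3 was -0.59 ± 0.10 (edgeR adjusted p = 6.8e-05). MPP-3 minus HSC was 0.42 ± 0.10 (edgeR adjusted p = 0.0020) and 0.68 without PBS replicate 1, but 0.10 with the library size in place of TMM (edgeR adjusted p = 0.44). That scaling moved the median of all genes in MPP-3 minus HSC from -0.01 to -0.34, and in MPP-2 minus HSC from -0.04 to -0.27, so that TMM values are relative to most genes of a class. Cluster 6 over all libraries had 172 MPP-3 cells, 4 of HSC and 1 of MPP-2. It held 156 Nfkbia UMIs in 57 cells of PBS replicate 1 and 74 in 40 cells of PBS replicate 3. The whole MPP-3 class held 480 UMIs in 796 cells and 179 in 422 cells of these libraries. The part of cluster 6 in the MPP-3 differences of Nfkbia was not tested. Nfkbie, which encodes the inhibitor IkBε (ENSMUSG00000023947, chr17:45555703-45563169), measured 7.44, 14.3 and 4.79 CPM in HSC and 5.02, 7.29 and 2.80 CPM in MPP-2. HSC was above MPP-2 within each library, and the difference of -0.52 ± 0.21 (edgeR adjusted p = 0.046) no longer passed when any 1 PBS library was left out. In MPP-4 it measured 9.80, 11.2 and 5.98 CPM, above MPP-2 within each library, and MPP-4 minus MPP-2 was 0.74 ± 0.17 (edgeR adjusted p = 0.0011), which passed without PBS replicate 2 or 3 but not without PBS replicate 1 (edgeR adjusted p = 0.053).

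Of the nuclear IkB genes, Nfkbiz encodes IkBζ, which works as a co-activator or repressor of a subset of NF-kB targets (ENSMUSG00000035356, chr16:55811375-55838899). The mean levels of its highest and lowest class differed 3.42-fold, the widest span of the 10 members. It measured 44.0, 35.9 and 35.2 CPM in HSC of PBS replicates 1, 2 and 3, and 35.0, 28.9 and 31.1 CPM in MPP-4. In MPP-3 it measured 23.4, 11.9 and 16.3 CPM, and in MPP-2 12.1, 10.9 and 10.6 CPM. HSC lay above MPP-4 and MPP-4 above MPP-3 without overlap, whereas MPP-3 and MPP-2 overlapped. MPP-3 was still above MPP-2 within each library, at a difference of 0.86 ± 0.14 (log2, SE; edgeR adjusted p = 8.9e-05). Without PBS replicate 1 this difference no longer passed (edgeR adjusted p = 0.062). The fitted difference of MPP-2 minus HSC was -1.57 ± 0.11 (log2, SE; edgeR adjusted p = 2.0e-11) and that of MPP-3 minus HSC was -0.71 ± 0.13 (edgeR adjusted p = 0.00013), while MPP-4 minus HSC was -0.22 ± 0.09 and did not pass (edgeR adjusted p = 0.082), or -0.13 without PBS replicate 1. Bcl3, which binds p50 and p52 dimers (ENSMUSG00000053175, chr7:19808462-19822770), measured 15.01, 10.2 and 9.28 CPM in MPP-3 and 11.4, 8.50 and 4.57 CPM in MPP-2. It was higher in MPP-3 within each library, and the difference of 0.65 ± 0.20 (edgeR adjusted p = 0.025) no longer passed when any 1 PBS library was left out, at 1.03 without PBS replicate 1, or by library size (edgeR adjusted p = 0.051). Tnfaip3, which encodes the ubiquitin-editing enzyme A20 (ENSMUSG00000019850, chr10:19000910-19015657), lay between 1.70 and 9.25 CPM with all classes overlapping.

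Cell-cycle phase moved with class. In PBS libraries 84.1% to 87.9% of HSC and 71.7% to 75.9% of MPP-4 cells were in G1, against 55.5% to 58.5% of MPP-3 and 6.06% to 12.9% of MPP-2 cells. Nfkbiz moved with phase as well, at 42.4, 33.3 and 35.0 CPM in G1 cells of PBS replicates 1, 2 and 3, 16.7, 12.9 and 11.2 CPM in S-phase cells and 13.6, 13.6 and 12.0 CPM in G2/M cells. The G1 values did not overlap the others. Relb measured 9.35, 12.7 and 6.60 CPM in G1 and 3.79, 6.76 and 2.99 CPM in S phase, and the mean of 7 further members was also lower in S phase than in G1, while Rela measured 24.7 ± 3.18 CPM in S phase and 24.5 ± 4.84 CPM in G1 (SD, n = 3). These CPM carry no TMM scaling, and the share of all genes lower in S phase was not computed. The values are therefore not read as particular to the members.

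**Figure D2:**
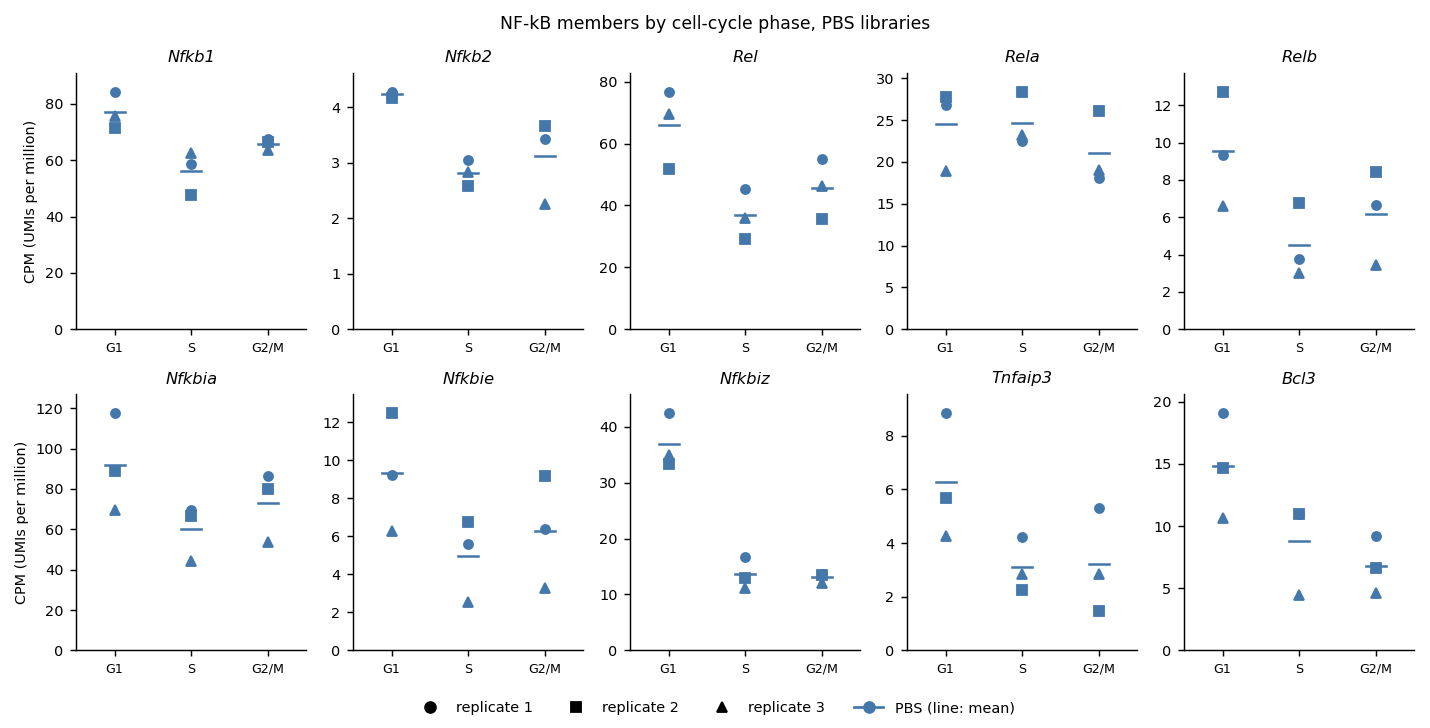
CPM of the 10 members in cells of each deposited phase of the PBS libraries, with 1 point per library and a line at the mean. Nfkbiz in G1 lay between 33.3 and 42.4 CPM and in S and G2/M between 11.2 and 16.7 CPM.

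When only G1 cells were summed, 2 members still differed between the classes by edgeR's F test, Nfkbia and Rel (adjusted p = 2.5e-06 and 0.00024), beside 25.4% of 10696 genes. PBS replicate 2 gave no MPP-2 value there, since it had 16 G1 cells of that class against the 20 required. In G1, Nfkbia measured 164, 161 and 100 CPM in MPP-3 of PBS replicates 1, 2 and 3, against 130, 89.1 and 63.0 CPM in HSC and 97.7, 79.7 and 63.9 CPM in MPP-4. MPP-3 lay above MPP-4 in all 3 libraries without overlap, and the difference of MPP-3 minus HSC was 0.99 ± 0.14 (log2, SE; edgeR adjusted p = 1.1e-05). The G1 sums of MPP-3 held 307 and 125 Nfkbia UMIs in PBS replicates 1 and 3. Cluster 6, mostly MPP-3, held 156 and 74 over all phases. Its share of the G1 cells was not computed, and its part in this difference was not tested. Rel in MPP-4 minus HSC was 0.43 ± 0.10 (edgeR adjusted p = 0.0020), close to its value over all phases. Nfkbiz in MPP-2 minus HSC was -0.54 ± 0.21 and did not pass (edgeR adjusted p = 0.18), at 32.8 and 24.5 CPM in G1 MPP-2 cells of PBS replicates 1 and 3 against 46.4, 40.7 and 40.3 CPM in G1 HSC. Relb gave -0.10 ± 0.49 and Nfkbie -0.01 ± 0.50 in that contrast, with errors of about 0.50 against 0.21 over all phases. Nfkbiz in MPP-3 minus HSC was -0.23 ± 0.16 in G1 (edgeR adjusted p = 0.41), Nfkbie in MPP-4 minus MPP-2 was 0.23 ± 0.48 (edgeR adjusted p = 0.87) and Bcl3 in MPP-3 minus MPP-2 was 0.0034 ± 0.37 (edgeR adjusted p = 0.9996), so that these calls were lost. Nfkbiz in MPP-3 minus MPP-2 was 0.32 ± 0.25 in G1 and did not pass (edgeR adjusted p = 0.65). Rel and Nfkb1 in MPP-2 minus HSC gave -0.59 and -0.37, larger in size than over all phases, and did not pass either (edgeR adjusted p = 0.11 and 0.22).

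To ask whether leukemia changed the pathway in healthy cells, AML libraries were set against PBS libraries over all LSK cells. None of the 10 members was called at an adjusted p under 0.05, beside 23 of 14364 genes (0.160%), of which 22 were higher and 1 lower in AML. By DESeq2, which called 79 genes, and limma-voom, which called 25, 0 members passed as well. Leaving out PBS replicate 1 left 2 genes, PBS replicate 2 left 8 and AML replicate 3 gave 419, with 0 members in each. At an unadjusted p under 0.05 the count was 1 of 10, against 10.5% of all genes. Both AML libraries lay above all PBS libraries in 3 members (Nfkb1, Nfkb2 and Tnfaip3), where 14.6% of all genes did so, and below them in 2 (Rela and Nfkbiz), where 17.4% did. The median log2 fold change of the members was 0.21, with 7 of 10 above 0, and that of all genes was -0.03.

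**Figure D3:**
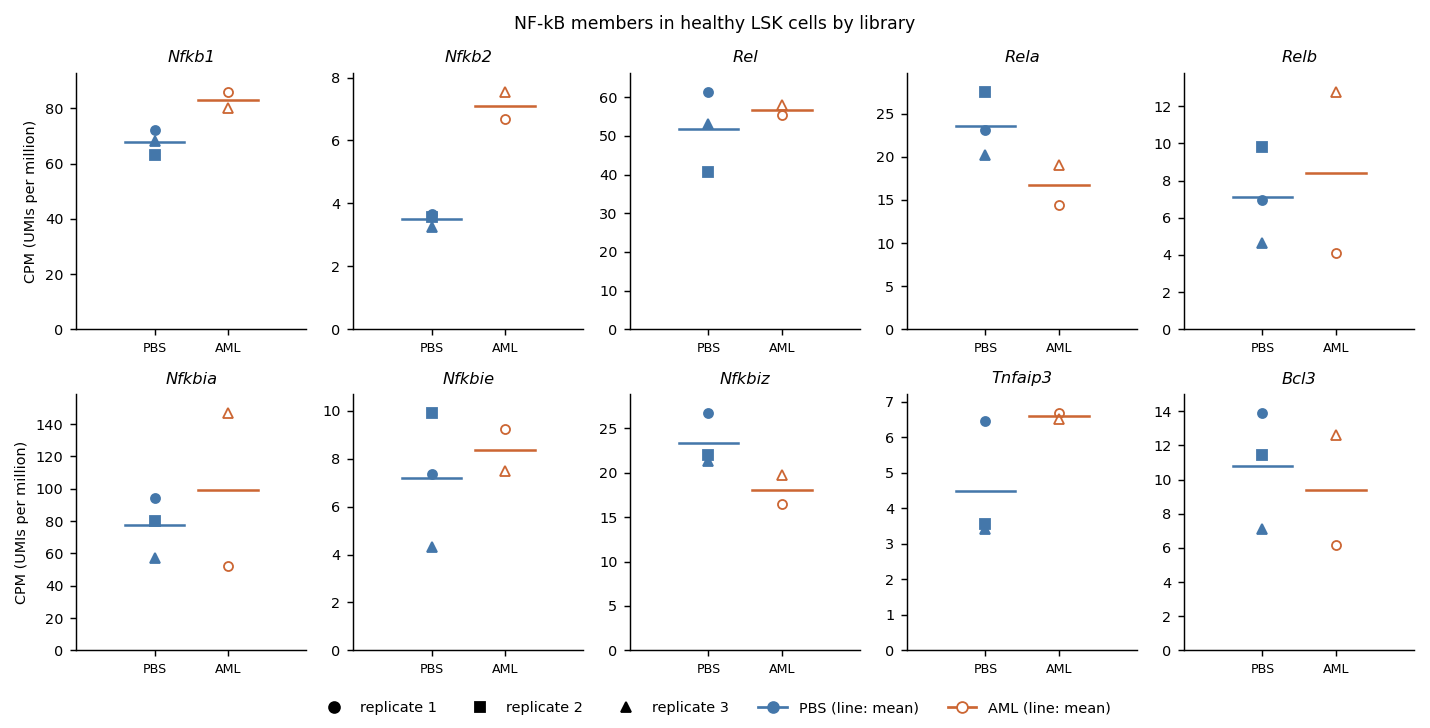
CPM of the 10 members over all LSK cells, with 1 point per library, PBS filled and AML open, and a line at the group mean. Nfkb2 lay between 3.25 and 3.67 CPM in PBS and at 6.68 and 7.54 CPM in AML, whereas the AML points of Nfkbia lay on either side of the PBS points.

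Among the 5 subunits, Nfkb2 had the largest estimate in this fit. It measured 3.67, 3.56 and 3.25 CPM in PBS replicates 1, 2 and 3 and 6.68 and 7.54 CPM in AML replicates 1 and 3. The groups did not overlap, and the AML value in replicate 1 rested on 13 UMIs. The log2 fold change was 1.03 ± 0.28 (SE; edgeR adjusted p = 0.21), which was under 0.05 only before adjustment over all genes. Nfkb1 measured 72.0, 63.0 and 68.3 CPM in PBS and 85.8 and 80.1 CPM in AML, at a log2 difference of 0.26 ± 0.22 (edgeR adjusted p = 0.66). Rela measured 23.1, 27.5 and 20.2 CPM in PBS and 14.4 and 19.1 CPM in AML, at a log2 difference of -0.47 ± 0.23 (edgeR adjusted p = 0.50), or -0.71 without AML replicate 3. For both, the AML libraries lay on 1 side of the PBS libraries, but neither estimate was under 0.05 before adjustment. Rel overlapped between the groups, at 61.3, 40.8 and 53.0 CPM in PBS and 55.5 and 58.1 CPM in AML, with an estimate of 0.11 ± 0.23 (edgeR adjusted p = 0.88) that was -0.0059 without PBS replicate 2.

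Relb was divided by AML library, with 6.94, 9.80 and 4.62 CPM in PBS replicates 1, 2 and 3, 4.11 CPM in AML replicate 1 and 12.8 CPM in AML replicate 3. The 2 AML libraries lay on either side of all PBS libraries, and the estimate of 0.48 ± 0.36 (log2, SE; edgeR adjusted p = 0.63) became -0.76 without AML replicate 3 and 0.85 without AML replicate 1.

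Of the cytoplasmic inhibitors, Nfkbia showed the same split. It measured 94.4, 80.0 and 57.4 CPM in PBS replicates 1, 2 and 3, 51.9 CPM in AML replicate 1 and 147 CPM in AML replicate 3. AML replicate 1 was thus the lowest of the 5 libraries and AML replicate 3 the highest. The estimate was 0.38 ± 0.33 (log2, SE; edgeR adjusted p = 0.68), and it was -0.56 without AML replicate 3 and 0.91 without AML replicate 1, so that 1 library decided the sign. Nfkbie overlapped, at 7.35, 9.90 and 4.31 CPM in PBS and 9.25 and 7.50 CPM in AML, with an estimate of 0.17 ± 0.33 (edgeR adjusted p = 0.88).

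Of the nuclear IkB genes, Nfkbiz measured 26.7, 22.0 and 21.3 CPM in PBS and 16.4 and 19.7 CPM in AML. Both AML libraries lay below the PBS libraries, at an estimate of -0.36 ± 0.22 (log2, SE; edgeR adjusted p = 0.56). Bcl3 overlapped, at 13.9, 11.4 and 7.08 CPM in PBS and 6.17 and 12.6 CPM in AML, with -0.05 ± 0.30 (edgeR adjusted p = 0.97). Tnfaip3, the deubiquitinase of the set, measured 6.47, 3.56 and 3.43 CPM in PBS and 6.68 and 6.52 CPM in AML. PBS replicate 1 was just under the AML libraries, and the estimate was 0.51 ± 0.32 (edgeR adjusted p = 0.57), or 0.85 without PBS replicate 1.

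Values that moved with the libraries stand beside these results. The summed CPM of 19 immediate early genes, which respond within minutes to stimulation and to cell handling, was 2874, 2061 and 1130 in PBS replicates 1, 2 and 3 and 967 and 1213 in AML replicates 1 and 3. Of the 19, 8 had an unadjusted p under 0.05 and all 8 were lower in AML, with 0 called after adjustment. Nfkbia followed the order of these sums among the PBS libraries but not over all 5, since AML replicate 3 had the highest Nfkbia level at a sum below those of PBS replicates 1 and 2. Of 10 monocyte and macrophage markers, 8 were tested and 2 were called higher in AML, and their summed CPM was 19.6 to 29.1 in PBS and 70.4 to 83.3 in AML, while Fn1 did not pass 0.132 CPM in any library. The 2 were F13a1, a transglutaminase subunit (log2 fold change 3.31 ± 0.43, edgeR adjusted p = 0.0071), and Ly6c2, a surface marker of monocytes (1.69 ± 0.27, edgeR adjusted p = 0.018). Ctsg, a granule protease and 1 of 7 MPP-3 markers, was called as well (1.54 ± 0.26, edgeR adjusted p = 0.025). The part of these sums in the members' values was not tested. With G1 cells only, with equal weight of the classes or with every cell thinned to 2000 UMIs, 0 members were called by edgeR as well.

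The comparison was repeated within each class, so that class makeup was held fixed as assigned. No member was called by edgeR in HSC (0.178% of genes called), MPP-2 (0.0399%), MPP-3 (0.0486%) or MPP-4 (0.0325%), and DESeq2 also called 0 members in each, although in MPP-2 it gave no adjusted p for 7 of the 10. At an unadjusted p under 0.05 there was 1 member in HSC and 1 in MPP-3 (4.16% and 7.39% of genes), and there were 2 each in MPP-2 and MPP-4 (7.56% and 5.93%).

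**Figure D4:**
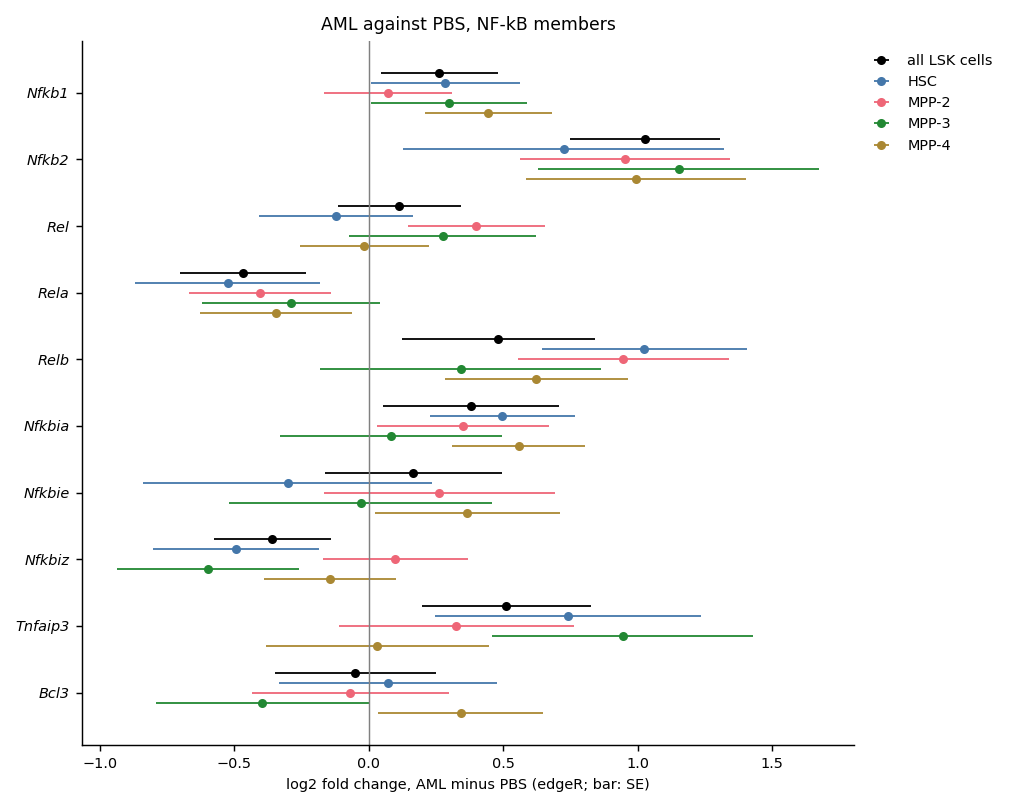
Log2 fold change of AML minus PBS from edgeR with its standard error (bar) for the 10 members, over all LSK cells and within each class. The values of Nfkb2 lay between 0.72 and 1.15 and those of Rela between -0.53 and -0.29.

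Nfkb2 had the lowest p of the members in every class but HSC. In MPP-4 it measured 3.38, 4.06 and 3.79 CPM in PBS replicates 1, 2 and 3 and 11.4 and 7.21 CPM in AML replicates 1 and 3, without overlap, and the log2 fold change was 0.99 ± 0.41 (SE; edgeR adjusted p = 0.76). In MPP-2 it measured 3.64, 2.43 and 2.70 CPM in PBS and 7.62 and 5.44 CPM in AML, and the log2 fold change was 0.95 ± 0.39 (edgeR adjusted p = 0.60). The Nfkb2 values of AML replicate 1 rested on 4 UMIs in MPP-4 and 7 UMIs in MPP-2. Both AML libraries lay above all PBS libraries in 13.2% of genes tested in MPP-4 and 14.1% in MPP-2. Relb, the other member under 0.05 before adjustment in MPP-2, measured 5.97, 6.56 and 2.70 CPM in PBS and 4.36 and 11.7 CPM in AML, overlapping, with 0.95 ± 0.39 (edgeR adjusted p = 0.61), or -0.23 without AML replicate 3. Its estimates of 0.34 in MPP-3 and 0.62 in MPP-4 were -1.95 and 0.0003 without that library. For Nfkb2 in MPP-3 the AML libraries parted, at 3.25 and 10.3 CPM, at a log2 difference of 1.15 ± 0.52 (edgeR adjusted p = 0.62). In HSC, AML replicate 1 held 23 cells and 0 UMIs of Nfkb2, which allows a level of up to 48.9 CPM, AML replicate 3 measured 8.11 CPM against 3.66 to 4.62 CPM in PBS, and the log2 fold change was 0.72 ± 0.60 (edgeR adjusted p = 0.99).

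In HSC the member of lowest p was Relb, at a log2 difference of 1.02 ± 0.38 (SE; edgeR adjusted p = 0.855), which rested on the 24.3 CPM of AML replicate 3 against 10.0, 13.7 and 7.89 CPM in PBS, since the 23 cells of AML replicate 1 held no Relb UMI. Nfkb1 in HSC measured 86.0, 75.8 and 80.6 CPM in PBS and 131 and 108 CPM in AML, the former from 8 UMIs in 23 cells. Its log2 fold change there was 0.28 ± 0.28 (edgeR adjusted p = 0.99). In MPP-4, Nfkb1 measured 80.0, 66.4 and 77.3 CPM in PBS and 134 and 94.8 CPM in AML, at a log2 difference of 0.44 ± 0.24 (edgeR adjusted p = 0.88), which was 0.26 without AML replicate 1 and 0.70 without AML replicate 3. Its estimates in MPP-2 and MPP-3 were 0.07 and 0.30, and with 1 library left out they ranged from 0.03 to 0.13 and from 0.20 to 0.44. Nfkbia in MPP-4, the other member under 0.05 before adjustment there, measured 91.3, 77.8 and 59.9 CPM in PBS and 77.0 and 143 CPM in AML, overlapping, with 0.56 ± 0.25 (edgeR adjusted p = 0.81), or -0.12 without AML replicate 3. For Nfkbia the HSC estimate of 0.50, the MPP-2 estimate of 0.35 and the MPP-3 estimate of 0.08 likewise became -0.52, -0.60 and -1.37 without AML replicate 3. Nfkbiz was lower in both AML libraries in HSC, at 16.3 and 31.2 CPM against 35.2 to 44.0 CPM in PBS, but not in MPP-2, at 14.2 and 11.8 CPM against 10.6 to 12.1 CPM. The HSC value of AML replicate 1 was 1 UMI in 23 cells. Its log2 fold changes were 0.10 ± 0.27 in MPP-2 cells, against -0.49 ± 0.31 for HSC, -0.60 ± 0.34 for MPP-3 and -0.15 ± 0.25 for MPP-4, and none passed. Without AML replicate 3 they were 0.27, -1.65, -0.30 and -0.62 in that order, and without AML replicate 1 they were 0.036, -0.43, -0.71 and -0.046. The share of cells in G1 was also lower in AML replicate 1, at 56.5% in HSC, 13.6% in MPP-3 and 28.2% in MPP-4, than in AML replicate 3, at 86.9%, 40.9% and 66.3%. Of these, only HSC of AML replicate 3 reached the PBS shares given above. Within G1 cells of HSC, Nfkbiz measured 46.4, 40.7 and 40.3 CPM in PBS and 34.3 CPM in AML replicate 3, still below every PBS library, while AML replicate 1 had too few cells for a value. In G1 cells of MPP-4 it measured 44.3, 32.6 and 35.8 CPM in PBS and 10.7 and 41.2 CPM in AML, the former from 1 UMI. In those of MPP-3 it measured 30.9, 15.2 and 26.5 CPM in PBS and 34.0 and 20.2 CPM in AML. In those of MPP-2, AML replicate 1 had 0 UMIs in 25 cells, which allows up to 49.8 CPM, and AML replicate 3 measured 26.3 CPM, between PBS replicates 3 and 1. The groups thus overlapped in G1 cells of MPP-3 and MPP-4, and no fit of AML against PBS was made within G1 cells of a class. The log2 estimates over the 4 classes ran from -0.12 to 0.40 for Rel, from -0.53 to -0.29 for Rela, from -0.30 to 0.37 for Nfkbie, from 0.03 to 0.94 for Tnfaip3 and from -0.40 to 0.34 for Bcl3, and none of these was under 0.05 before adjustment. These estimates were not stable to leaving out AML replicate 3. Over the 3 MPP classes they then ran from -0.22 to 0.47 for Rel, -1.31 to -0.25 for Rela, -0.99 to 1.04 for Nfkbie, -0.18 to 1.47 for Tnfaip3 and -1.95 to 0.05 for Bcl3. In HSC, Rel was then -0.60 and Nfkbie 0.59, and the 23 cells of AML replicate 1 held 0 UMIs of Rela, Tnfaip3 and Bcl3, so that no fold is given.

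A test of class-by-treatment terms asked if the difference between AML and PBS varied with class. No member was called by edgeR, beside 0.872% of 12734 genes. Nfkbiz had the lowest p, the only member under 0.05 before adjustment where 10.9% of all genes were (edgeR adjusted p = 0.235), and its effect in MPP-2 minus that in HSC was 0.53 ± 0.24. The edgeR adjusted p of the other 9 members lay between 0.61 and 0.95.

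Across the deposited clusters, levels are described with no test, since the clusters are groupings of the same cells and the sources used here do not say which genes drew them. Clusters 0 to 5 had at least 20 cells in each PBS library, and the highest and lowest means below are among these clusters only. Cluster 0, the largest, had the highest mean of Nfkb1, at 84.4 ± 2.71 CPM (SD, n = 3 PBS libraries), above the 61.3 to 79.8 CPM of cluster 5 without overlap. It also led in Nfkbiz, at 31.6 ± 2.05 CPM, which overlapped with cluster 2. Cluster 2, which held 3000 MPP-4 cells beside 375 of MPP-2, 218 of MPP-3 and 140 of HSC, had the highest mean of Rel, at 74.0 ± 16.1 CPM, overlapping with cluster 5. Clusters 3 and 4, mostly MPP-2 and MPP-3, had the lowest means of Nfkbiz, at 9.60 ± 2.76 and 11.6 ± 2.19 CPM. Cluster 5 had the highest means of Relb, Nfkbia and Rela, at 14.6 ± 4.13, 98.0 ± 33.6 and 35.2 ± 10.4 CPM, each overlapping with cluster 0.

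**Figure D5:**
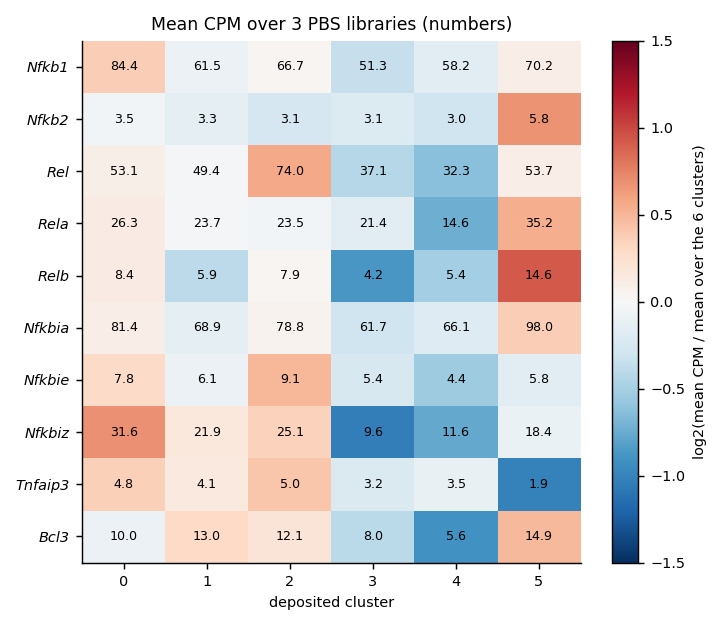
Mean CPM of the 10 members over the 3 PBS libraries in deposited clusters 0 to 5 (numbers), colored by the log2 ratio to the mean over these clusters. Nfkbiz ranged from 9.60 CPM in cluster 3 to 31.6 CPM in cluster 0.

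The small clusters held outlying levels that rest on few cells. In cluster 6, Nfkbia measured 302 CPM in PBS replicate 1, 163 CPM in PBS replicate 3 and 232 CPM in AML replicate 3, from 57, 40 and 59 cells, while Rel measured 11.6, 8.82 and 11.5 CPM in the same cells. In cluster 8, Tnfaip3 measured 51.0, 45.8 and 48.2 CPM in PBS replicates 1 and 3 and AML replicate 3, from 6, 5 and 11 UMIs, which is above its level in any library of clusters 0 to 7 that had 20 cells.

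AML against PBS was tested in clusters 0 to 4, where every library had at least 20 cells. No member was called by edgeR in any, beside 0.0407%, 0.155%, 0.199%, 0.156% and 0.522% of genes in clusters 0, 1, 2, 3 and 4. In clusters 0 to 3 all 10 members were tested, and in cluster 4, 6 passed the filter on low counts. At an unadjusted p under 0.05 there were 0, 0 and 3 members in clusters 0, 2 and 3, beside 8.44%, 5.85% and 4.20% of genes, 3 in cluster 1 (7.67%) and 2 in cluster 4 (5.34%). In cluster 1 these were Nfkb2 (log2 fold change 1.30 ± 0.43), Relb (1.10 ± 0.36) and Rela (-0.88 ± 0.37), with edgeR adjusted p of 0.39, 0.39 and 0.58. Without AML replicate 3 that of Relb was 0.22 and that of Rela -3.37, the latter fitted to 1 Rela UMI in AML replicate 1. Those of cluster 3 were Nfkb2 (1.38 ± 0.56), Nfkbia (0.68 ± 0.28) and Relb (1.15 ± 0.52), each with an edgeR adjusted p of 0.9999, and those of cluster 4 were Relb (1.45 ± 0.70, edgeR adjusted p = 0.90) and Nfkbia. In cluster 3, Nfkb2 rested on 3 UMIs in AML replicate 1 and was 2.41 without AML replicate 3. AML replicate 1 had 0 Relb UMIs in clusters 3 and 4. In cluster 4, Relb measured 2.16, 11.7 and 2.33 CPM in PBS and 11.7 CPM in AML replicate 3, so that the groups overlapped and the estimate rested on AML replicate 3. The log2 estimates of the remaining members tested ran from -0.31 to 0.80 in cluster 0, -0.14 to 0.55 in cluster 1, -0.43 to 0.83 in cluster 2, -0.33 to 0.97 in cluster 3 and -0.62 to 0.65 in cluster 4. In cluster 4, Nfkbia measured 67.0, 76.2 and 55.0 CPM in PBS replicates 1, 2 and 3, 30.9 CPM in AML replicate 1 and 181 CPM in AML replicate 3. The AML libraries again lay on either side of all PBS libraries, at a log2 difference of 0.92 ± 0.35 (SE; edgeR adjusted p = 0.57). Without AML replicate 1 it was 1.48 and passed (edgeR adjusted p = 0.0043), and without AML replicate 3 it was -1.13.

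The rest of the pathway was read from 6 lists, with 0 genes called over all LSK cells by edgeR in each. These were 16 other inhibitors and deubiquitinases, 20 canonical kinases and adaptors, 8 of 9 genes of the non-canonical arm, 9 of 11 upstream receptors and 26 of 31 inflammatory targets that passed the filter on low counts, and the immediate early genes above. Their median log2 fold changes were 0.06, 0.01, 0.14, 0.12 and 0.19 for the first 5, beside -0.03 for all genes. The gene of lowest p in each was as follows. Bcl2a1b, an anti-apoptotic target, gave 1.53 ± 0.35 (edgeR adjusted p = 0.14), and Il18r1, a chain of the interleukin-18 receptor, gave 0.87 ± 0.27 (edgeR adjusted p = 0.29). Traf3, an adaptor that restrains the non-canonical arm, gave 0.55 ± 0.23 (edgeR adjusted p = 0.42), Pdlim2, which promotes degradation of nuclear Rela, gave -0.66 ± 0.26 (edgeR adjusted p = 0.42), and Rnf31, the catalytic subunit of the linear ubiquitin ligase, gave 0.64 ± 0.34 (edgeR adjusted p = 0.52). None of these passed.

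Likeness of pattern was described for the 5 members with a mean of at least 20 CPM over the 18 sums of library and class that held at least 100 cells, among 5783 genes of that level. By Pearson's r of log2(CPM + 1), the 3 genes most like Nfkb1 included Zfp445 and Anks1 (r = 0.94 and 0.92), Rel was most like Myo5a, Mef2a and Mir142hg (0.92, 0.91 and 0.91), and Rela most like Ptms, Vamp7 and Hspbp1 (0.94, 0.92 and 0.91). Nfkbia was most like Ms4a6b, Ifi35 and Pip4p1 (0.85, 0.81 and 0.80), and the 3 most like Nfkbiz included Stat4 and Gm14636 (0.91 and 0.90). The sums share libraries and depth, and these values are given with no test.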

How the data were processed

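Bone marrow LSK cells of PBS and AML mice were profiled in 6 single-cell libraries, 3 per group. Per the labels and the submitters' processing notes, the authors made UMI counts per gene and barcode with Cell Ranger 7.0.1 (GRCm38/mm10) and analysed them with R 4.2.2 and Seurat 4.3.0. The deposited cell table gave class, phase, cluster and the percent of mitochondrial counts, and 18 further columns were not used. The sources used here do not say how doublets were treated, and no doublet caller was run.

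UMIs were summed per library over the 16822 cells of that table, overall and per class, cluster or phase where at least 20 cells were present. AML replicate 2 had no cell in it and entered only an alternative with 6 libraries, whose cells had at least 1000 genes and at most 10% mitochondrial counts. Library sums were tested with edgeR 4.0.16 (quasi-likelihood, TMM, its filter on low counts, Benjamini-Hochberg threshold 0.05) in R 4.3.3, after a test on simulated data. Alternatives used DESeq2 1.42.0, limma 3.58.1, other filters and scaling, thinning to 2000 UMIs and leaving out libraries. The members, the gene lists and the tests were chosen with earlier results of these data known. The naming rule took all members, given singly, as a range or in a count, and of other pathway lists the genes called, or else the gene of lowest p. Upper limits for counts of 0 are 3 counts of the sum and cover counting error only. Antisense and overlapping genes were not resolved, and some genes that the naming rule covers are not reported here.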

Additional observations from a re-analysis of the deposited data

Results flagged for a closer look

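AML replicate 2 is absent from the deposited cell table and entered no comparison above. Under a filter of at least 1000 genes and at most 10% mitochondrial counts it kept 106 cells, and 4 members there stood above every PBS library under the same filter. The share of all genes that did so was not computed, so this count is not read as a result about the members. Of the 106 cells, 75 had a barcode that also occurred in another library, and 1223 of the 1256 barcodes of PBS replicate 2 occurred in AML replicate 2. Nfkb2 measured 6.535 CPM from 2 UMIs (95% exact Poisson interval 0.791 to 23.6) against at most 3.60 CPM in PBS. Tnfaip3 also measured 6.535 CPM from 2 UMIs, with the same interval, against at most 6.39 CPM. Relb measured 13.07 CPM from 4 UMIs (3.56 to 33.5) against at most 9.78 CPM, and Nfkbia 107.8 CPM from 33 UMIs (74.2 to 151) against at most 93.1 CPM. All 4 intervals, which cover counting error only, included the highest PBS value. Groups of 3 and 2 libraries were too small to test for single outlying samples.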

How the results depend on the processing

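Over all LSK cells, with 23 genes called, DESeq2 called 79, the replicate block 91, the test with no filter 392, equal weight of the classes 2, thinning to 2000 UMIs 9 and the 6 libraries under the other cell filter 75. In HSC (19 genes) the counts were 0 by DESeq2, 29 by library size only, 29 with no filter and 9 with the replicate block. In MPP-2 (5) they were 15, 26, 156 and 30 in that order, in MPP-3 (5) 8, 84, 166 and 47, and in MPP-4 (4) 1, 9, 75 and 34. With no filter, clusters 0 to 3 gave 104, 151, 43 and 30 genes. The difference of the AML effect between classes was called for 111 genes, and for 1 by limma-voom, which took libraries as random. Levels between classes gave 2713 genes and 2 members in G1 cells only, against 7164 and 7.

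With 1 library left out at a time, the counts of genes ranged from 2 to 419 over all LSK cells, 0 to 17 in HSC, 0 to 84 in MPP-2, 2 to 69 in MPP-3, 0 to 34 in MPP-4, 29 to 189 for the effect between classes and 5126 to 7136 for levels between classes. By cluster, an alternative chosen after seeing the data, they ranged from 0 to 142, 4 to 496, 8 to 109, 2 to 17 and 18 to 101 in clusters 0, 1, 2, 3 and 4. With 1 AML library left, it is assumed to vary like the others. The count of members called in AML against PBS was 0 under every alternative but 1 (DESeq2 gave no adjusted p for 7 members in MPP-2), Nfkbia in cluster 4 without AML replicate 1 (range 0 to 1). For levels between classes, leaving out 1 PBS library gave 3 to 5 members.

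Some log2 estimates changed sign. Rel gave -0.023 with the replicate block and -0.095 in G1 cells only. Nfkbie gave -0.062 in the 6 libraries, -0.011 in the same cells without AML replicate 2 (chosen after seeing the data) and -0.080 when thinned. Bcl3 gave 0.013 with the replicate block, 0.067 by limma-voom and 0.21 in G1 cells only, and its MPP-2 minus HSC difference was 0.75 in G1 cells only. DESeq2 gave -0.052 for Relb and -0.016 for Nfkbia in MPP-3. With 1 library left out, log2 fold changes ranged from -0.79 to 0.21 for Bcl3, -0.56 to 0.91 for Nfkbia, -0.055 to 0.47 for Nfkbie, -0.0059 to 0.22 for Rel and -0.76 to 0.85 for Relb, from -0.23 to 1.23 and -1.95 to 0.67 for Relb in MPP-2 and MPP-3, from -0.52 to 0.70, -0.60 to 0.83, -1.37 to 0.71 and -0.12 to 0.84 for Nfkbia in HSC and MPP-2 to MPP-4, and for Nfkbia from -0.33 to 0.93 in cluster 3 and from -1.13 to 1.48 in cluster 4. In HSC they ranged from -6.49 to 0.81 for Nfkb2 and from -7.74 to 1.21 for Relb, and in cluster 3 from -6.12 to 1.61 for Relb, the low ends being fitted to 0 UMIs in AML replicate 1, which are no bound. The cause of these changes was not tested. Whether same-numbered PBS and AML libraries were pairs could not be decided. Across genes, their deviations from the group mean gave r = -0.057 for number 1 and -0.055 for number 3. With 2 AML libraries the AML deviations mirror each other, so these r values are not separate checks. The replicate block changed no call of a member. AML replicate 1, with 693 cells, and the absence of AML replicate 2 limit the precision of each comparison of AML with PBS.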
